A study of Mus musculus with 419 samples.

Results

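Fkbp5, Tsc22d3, Zbtb16, Map3k6, Sgk1 and Klf9 are direct or widely used target genes of the glucocorticoid receptor, and these 6 genes were taken by symbol from a table of 55487 genes. The table holds poly(A) RNA counts of 419 libraries; 19 tissues were taken from mice of the inbred strain CBA/CaJ, studied as a model of RED-S, the syndrome of low energy availability in athletes. Energy-deficient mice (Deficient) were set against energy-sufficient mice (Control), both sexes were sampled in 16 tissues, and ovary and uterus came from females and testis from males. Mice were sampled at zeitgeber times 17 h (ZT17) and 5 h (ZT05), counted from lights on. The 140 groups of tissue, sex, treatment and time held 3 libraries each, except that Control males at ZT05 had 2 in the tendon of the tibialis anterior. No transgene or mutation is given for any group, and the age of the mice and the means and length of the deficiency are not given in the sources used here.

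Glucocorticoids are steroid hormones made in the adrenal cortex under the control of pituitary corticotropin, and corticosterone is the main one in mice. In nocturnal rodents corticosterone is low in the first part of the light phase and peaks around the start of the dark phase, and fasting and stress raise it. The hormone binds the glucocorticoid receptor, which leaves its chaperone complex, enters the nucleus and binds palindromic DNA elements near its target genes. No hormone was measured in these files, so the values below are RNA levels only.

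The members differ in what they encode. Fkbp5 encodes an immunophilin co-chaperone that lowers the hormone affinity of the receptor, a short negative feedback. Tsc22d3 encodes GILZ, a leucine zipper protein with anti-inflammatory actions, and Map3k6 a stress-activated kinase of the MAP kinase cascade. Zbtb16 encodes the zinc finger repressor PLZF, and Klf9 a Krüppel-like zinc finger factor. Sgk1 encodes a kinase that regulates ion channels and transporters in the kidney and other tissues.

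In GRCm38, with GENCODE M21 annotation, Fkbp5 (ENSMUSG00000024222) lies at chr17:28399094-28517527 on the minus strand, Tsc22d3 (ENSMUSG00000031431) at chrX:140539528-140600659 on the minus strand, and Zbtb16 (ENSMUSG00000066687) at chr9:48654297-48836222 on the minus strand. Map3k6 (ENSMUSG00000028862) lies at chr4:133240818-133252929, Sgk1 (ENSMUSG00000019970) at chr10:21882184-21999903 and Klf9 (ENSMUSG00000033863) at chr19:23141226-23168134, all 3 on the plus strand. Fkbp5 overlaps 4 other annotated genes and Klf9 overlaps 1 microRNA gene, and whether the counting used the strand is not given in the sources used here.

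RefSeq promoter windows for GRCm38.p6, each 300 bases long, were found for 5 of the 6 genes. They are shown for the 2 members whose window holds the receptor's palindromic element. The capitals mark the full consensus AGAACANNNTGTTCT in Sgk1, and the looser form GNACANNNTGTNC in Map3k6. Both strands were searched; the full form is contained in the loose one.
Sgk1, chr10:21993640-21993939, plus strand: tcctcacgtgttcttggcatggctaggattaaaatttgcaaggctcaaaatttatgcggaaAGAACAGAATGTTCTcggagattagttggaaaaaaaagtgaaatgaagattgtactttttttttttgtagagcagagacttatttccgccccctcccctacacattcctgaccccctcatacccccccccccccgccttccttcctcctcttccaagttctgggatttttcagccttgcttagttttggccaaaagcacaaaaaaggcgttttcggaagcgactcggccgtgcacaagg
Map3k6, chr4:133240568-133240867, plus strand: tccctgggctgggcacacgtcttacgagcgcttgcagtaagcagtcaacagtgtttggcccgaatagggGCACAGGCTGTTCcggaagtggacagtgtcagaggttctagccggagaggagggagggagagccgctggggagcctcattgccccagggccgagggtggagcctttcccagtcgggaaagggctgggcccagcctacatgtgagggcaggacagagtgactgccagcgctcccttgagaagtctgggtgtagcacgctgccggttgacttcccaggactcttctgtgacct
The full consensus was present in 3 of 32841 such windows of all genes (0.00913%), and the loose form in 156 (0.475%). Sgk1 had 6 windows, of which 1 held it, Tsc22d3 had 3, and Fkbp5, Map3k6 and Klf9 had 1 each; neither form was found in those of Fkbp5, Tsc22d3 and Klf9. A match is a description of the letters in this window.

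Library totals ran from 5777450 to 53598700 counts, with a median of 17426200. In 58 libraries, all of them among the 110 of males in the lower of 2 ranges of mouse numbers (the first cohort), more than 50% of the counts fell on mitochondrially encoded or rRNA-like genes, and as few as 332749 counts remained outside them. Levels are given as CPM, the count scaled to a common library size outside these genes, and tests used all counts. Brown adipose tissue, gastrocnemius and its tendon, heart, liver, lung, quadriceps and spleen hold such libraries. Tissue markers were highest in the labelled organ for adrenal gland, brown adipose tissue, heart, kidney, liver, lung, pituitary, spleen, testis and uterus. The gastrocnemius tendon had rank 4 for the tendon gene Tnmd, with a median of 40.6 CPM. Ovary-labelled libraries differed among themselves and are described with the levels.

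The response to energy deficiency differed between the times of sampling in at least 1 tissue for 5 of the 6 genes. A gene is called higher or lower in a tissue at a Benjamini-Hochberg adjusted p under 0.05 by edgeR, over all genes tested there. At ZT17, 21 of 113 member and tissue pairs were higher in Deficient mice and 5 were lower, against 68 higher and 0 lower at ZT05. At an unadjusted p under 0.05, 3 pairs were lower at ZT05, Klf9 in liver and Sgk1 in ovary and uterus, and DESeq2 called 0. Of all gene and tissue pairs tested, 4.19% rose and 4.26% fell at ZT17, and 3.87% rose and 3.98% fell at ZT05. The median log2 fold change of the members was 0.46 at ZT17 and 1.23 at ZT05, where the median over all pairs was 0.0069 and 0.0024. The difference between both responses, ZT17 minus ZT05, was tested itself: it was negative and called in 22 pairs and positive and called in 1, against 0.989% and 0.912% of all pairs. Its median over the members was -0.81. The members were chosen with earlier results of these data known. Tissues share mice and are not independent replicates, and in bulk tissue a change in the number of cells of a type and a change in RNA per cell cannot be told apart.

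**Figure D1:**
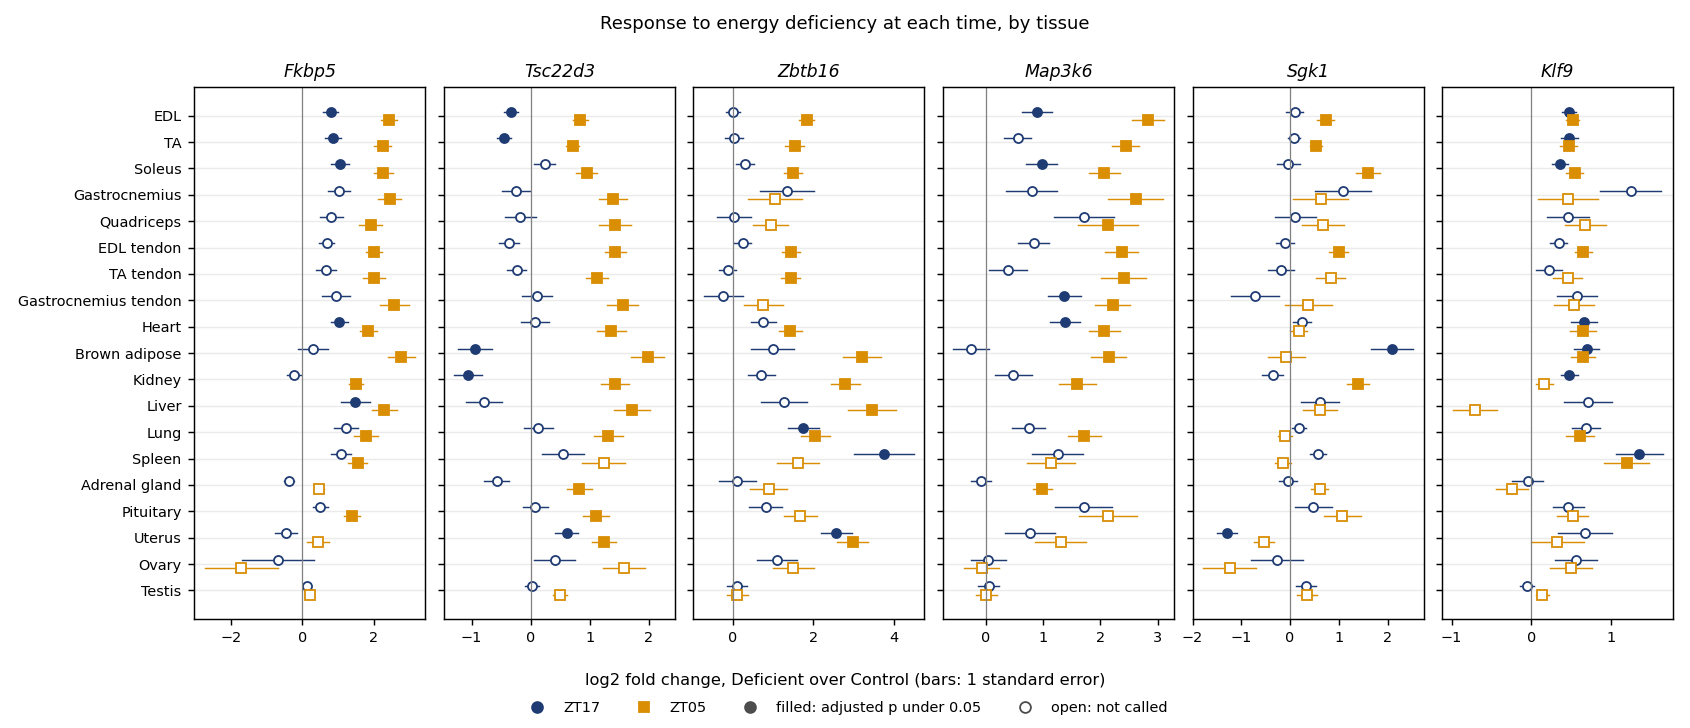
Log2 fold change, Deficient over Control, of the 6 genes in each tissue at ZT17 (circles) and ZT05 (squares), with bars of 1 standard error; filled symbols have an adjusted p under 0.05. Most squares of Fkbp5, Tsc22d3 and Map3k6 lie to the right of the circle of the same tissue, while both symbols lie close together in most tissues for Klf9.

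Fkbp5 was higher in Deficient mice in 5 of 19 tissues at ZT17 and in 15 at ZT05. Its median log2 fold change was 0.79 at ZT17 and 1.91 at ZT05. In the extensor digitorum longus (EDL), a fast hindlimb muscle, Deficient libraries held 109 to 302 CPM at ZT17 (median 153) and 61.6 to 275 CPM at ZT05 (median 106). Control libraries held 79.0 to 117 CPM at ZT17 (median 97.7) and 20.0 to 33.5 CPM at ZT05 (median 24.1; 6 libraries per group). At ZT05 each Deficient library lay above each Control library, and the lowest values of the 4 groups were those of Control mice at ZT05. The fold change in EDL was 0.79 ± 0.21 at ZT17 (SE; adjusted p = 0.011, edgeR) and 2.42 ± 0.23 at ZT05 (adjusted p = 6.7e-07), and the difference between them was -1.63 ± 0.31 (adjusted p = 0.00537). This difference was also called in brown adipose tissue (-2.46 ± 0.57), kidney (-1.74 ± 0.28) and the tibialis anterior (TA; -1.39 ± 0.32). In TA the adjusted p was 0.0243, and 0.0501 without the library of mouse 39, a Control female at ZT05. In kidney Fkbp5 gave -0.24 ± 0.19 at ZT17 (adjusted p = 0.355), and it rose by 1.502 ± 0.20 at ZT05.

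**Figure D2:**
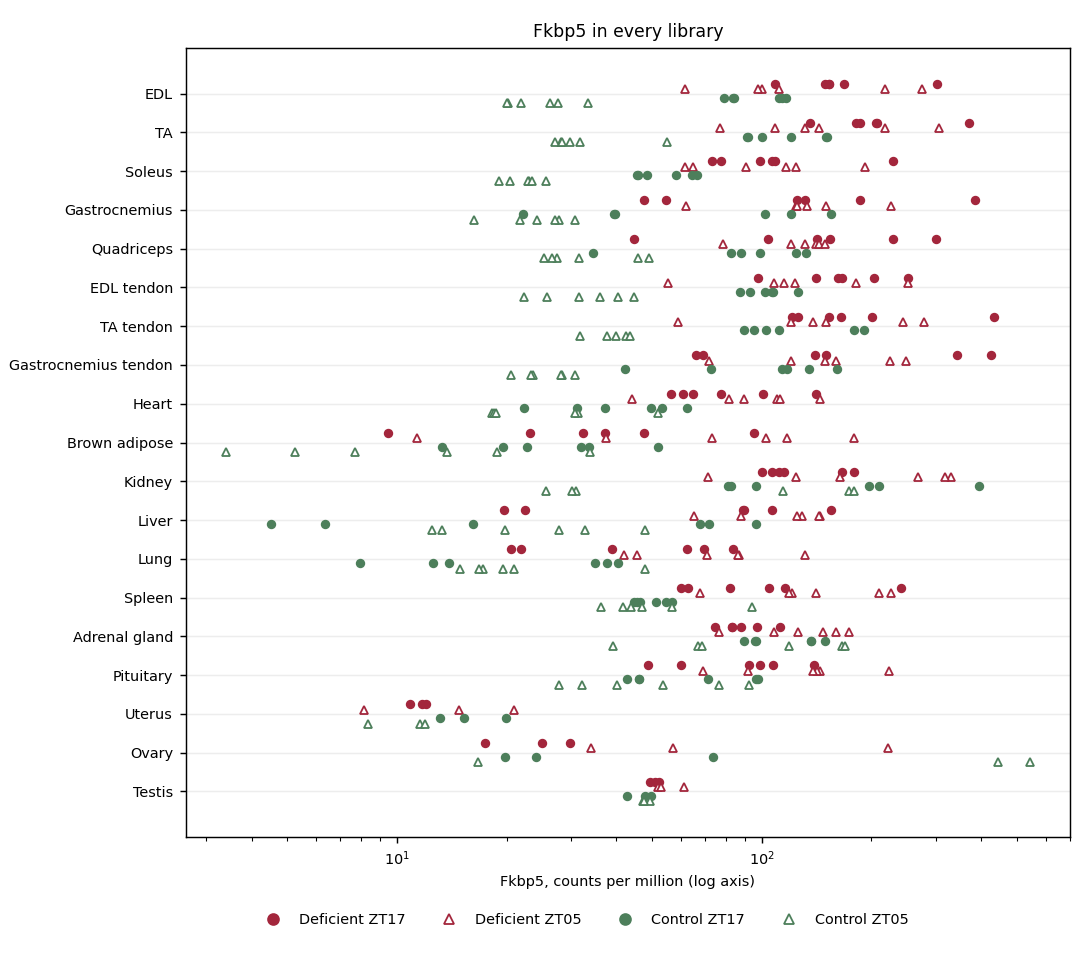
Fkbp5 in CPM (log axis) in every library, by tissue; Deficient libraries are red and lie above the green Control libraries of the same tissue, circles are ZT17 and triangles ZT05. In the limb muscles and tendons the open green triangles, Control at ZT05, sit left of the other groups, and in ovary 3 triangles lie far to the right.

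Tsc22d3 was the member with the clearest turn. It was higher in Deficient mice in 1 of 19 tissues at ZT17 and lower in 4, against 16 higher and 0 lower at ZT05. In kidney, Deficient libraries held 32.3 to 77.6 CPM at ZT17 (median 44.8) and 35.1 to 145 CPM at ZT05 (median 138). Control libraries held 63.5 to 128 CPM at ZT17 (median 105) and 18.2 to 62.3 CPM at ZT05 (median 43.9). The order of the treatments was thus opposite at both times, with some overlap of single libraries. Tsc22d3 fell by 1.06 ± 0.23 at ZT17 (log2; adjusted p = 0.00175) and rose by 1.43 ± 0.23 at ZT05 (adjusted p = 0.000327), and the difference was -2.49 ± 0.33 (adjusted p = 0.000337). In brown adipose tissue it fell by 0.94 ± 0.28 at ZT17 and rose by 1.98 ± 0.28 at ZT05, and in TA it fell by 0.45 ± 0.11 and rose by 0.71 ± 0.12. The fall in EDL at ZT17, -0.34 ± 0.12 (adjusted p = 0.0488), held in 5 of 24 fits that left out 1 library, and that in brown adipose tissue in 20 of 24. The response difference was called in 8 tissues: adrenal gland, brown adipose tissue, EDL, EDL tendon, kidney, liver, lung and TA. It was -2.92 ± 0.40 in brown adipose tissue, and -2.50 ± 0.43 in liver, where the fall of 0.79 ± 0.31 at ZT17 was not called (adjusted p = 0.0992). Mitochondrially encoded and rRNA-like genes took 73.4% to 94.4% of counts in Control male brown adipose tissue and 79.2% to 95.3% in male liver. A fit with a term for the male cohort ended the call of the fall in brown adipose tissue at ZT17. The uterus was the 1 tissue with a rise at ZT17 (0.61 ± 0.20), called in 5 of 12 fits that left out 1 library.

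Map3k6 had the highest median response at ZT05 of the 6 genes. It was tested in 18 tissues, since it did not pass the count filter in liver. It was higher in Deficient mice in 4 tissues at ZT17 (median over tissues 0.78) and in 13 at ZT05 (median 2.10). In EDL, Deficient libraries held 2.59 to 10.6 CPM at ZT17 (median 6.50) and 5.59 to 23.1 CPM at ZT05 (median 10.7). Control libraries held 1.71 to 4.87 CPM at ZT17 (median 3.55) and 1.05 to 2.41 CPM at ZT05 (median 1.91). Deficient and Control libraries overlapped at ZT17 and did not at ZT05. The fold change was 0.89 ± 0.26 at ZT17 and 2.83 ± 0.27 at ZT05 (adjusted p = 9.35e-07), with a difference of -1.94 ± 0.38 (adjusted p = 0.00701). Heart gave 1.38 ± 0.26 at ZT17 and 2.07 ± 0.27 at ZT05, both called, with a difference of -0.69 ± 0.38 that was not (adjusted p = 0.459).

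Zbtb16 was higher in Deficient mice in 3 of 19 tissues at ZT17, lung, spleen and uterus, and in 11 at ZT05. In EDL, Deficient libraries held 85.6 to 198 CPM at ZT17 (median 182) and 50.3 to 270 CPM at ZT05 (median 145). Control libraries held 147 to 183 CPM at ZT17 (median 155) and 24.4 to 44.7 CPM at ZT05 (median 37.2). Only the Control libraries at ZT05 stood apart from the other 3 groups. The fold change was 0.01 ± 0.18 at ZT17 and 1.84 ± 0.19 at ZT05 (adjusted p = 1.64e-06), and the difference -1.83 ± 0.26 (adjusted p = 0.000608). Kidney (-2.08 ± 0.48), TA (-1.50 ± 0.32) and soleus (-1.19 ± 0.30) gave called differences as well, that of soleus in 12 of 24 fits that left out 1 library. The rise at ZT17 was called in 17 of 24 such fits each in lung and spleen, and in 12 of 12 in uterus. Spleen values were low: 1.85 to 26.9 CPM in Deficient and 0 to 5.39 CPM in Control libraries at ZT17.

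The uterus kept its Zbtb16 response at both times. Deficient libraries held 33.6, 24.9 and 20.7 CPM at ZT17 and 16.8, 32.4 and 15.6 CPM at ZT05, and Control libraries 4.76, 4.35 and 4.26 CPM at ZT17 and 3.44, 3.30 and 1.42 CPM at ZT05. No Deficient library overlapped a Control library. The log2 fold change was 2.58 ± 0.37 at ZT17 (adjusted p = 0.00219) and 2.98 ± 0.39 at ZT05 (adjusted p = 0.00729). Of all genes tested in uterus, 14.1% rose at ZT17. Sgk1 went the other way there, where 17.1% of all genes fell, with 45.2, 31.9 and 31.4 CPM in Deficient libraries against 94.3, 86.2 and 86.9 CPM in Control libraries at ZT17 (-1.29 ± 0.20, adjusted p = 0.00258). Summed macrophage markers were also lower in this tissue, at 137 to 288 CPM in Deficient and 435 to 636 CPM in Control libraries, and their part in the result was not tested.

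Sgk1 was called in fewer tissues. Some male groups mix both ranges of mouse numbers, and gastrocnemius of Deficient males at ZT05 held 63.0, 41.8 and 353 CPM of Sgk1. The part of such spread in the missing calls was not tested. Sgk1 was higher in Deficient mice in 1 tissue at ZT17 and lower in 1, against 5 higher at ZT05, among them kidney (1.40 ± 0.22) and soleus (1.59 ± 0.24). Its response was lower at ZT17 in kidney (difference -1.76 ± 0.31, adjusted p = 0.003) and soleus (-1.64 ± 0.34). Brown adipose tissue was the exception, with the 1 positive difference called among the members, 2.18 ± 0.57 (adjusted p = 0.0137). There, Deficient libraries held 31.7 to 192 CPM at ZT17 (median 85.4) and 30.9 to 160 CPM at ZT05 (median 98.9). Control libraries held 0 to 37.3 CPM at ZT17 (median 22.8) and 51.9 to 125 CPM at ZT05 (median 83.0). The Control libraries at ZT17 were the low group, but the 3 male libraries among them rest on 0, 14 and 14 counts of Sgk1, since mitochondrial and rRNA-like genes took at least 73.4% of Control male libraries there. The 3 female ones held 18.5, 25.7 and 20.0 CPM. All 24 fits that left out 1 library kept the call.

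Klf9 was the member with no called difference between the times. It was higher in Deficient mice in 7 of 19 tissues at ZT17 (median 0.48) and in 8 at ZT05 (median 0.52), and the difference between both responses was called in 0 tissues by edgeR, with a median of 0.04 and an unadjusted p under 0.05 in liver. In EDL, Deficient libraries held 159 to 248 CPM at ZT17 (median 220) and 225 to 403 CPM at ZT05 (median 303). Control libraries held 122 to 176 CPM at ZT17 (median 158) and 189 to 230 CPM at ZT05 (median 207). Both treatments were lower at ZT17, and Deficient was above Control at each time with a small overlap. The fold change was 0.47 ± 0.08 at ZT17 and 0.52 ± 0.08 at ZT05, and the difference -0.05 ± 0.12 (adjusted p = 0.918). Liver had the highest difference, 1.42 ± 0.41 (adjusted p = 0.0509). This difference was called with DESeq2, without a low-count filter, with a stricter one, without mitochondrially encoded and rRNA-like genes, and with the replicate block. Those genes took 79.2% to 95.3% of the counts of male liver libraries, which left 396892 to 1501140 counts outside them.

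The same data were compared between times within each treatment; these comparisons use the same libraries as those between treatments and are given side by side with them, not as further support. In Deficient mice 0 of 113 pairs were higher at ZT17 than at ZT05 and 11 were lower, and 0.789% and 0.812% of all pairs were. Zbtb16 in quadriceps and TA was higher at an unadjusted p under 0.05, and DESeq2 called 0 pairs higher. In Control mice 31 pairs were higher at ZT17 and 6 lower, where 2.6% and 2.66% of all pairs were. The median difference of the members was -0.28 in Deficient and 0.45 in Control mice.

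**Figure D3:**
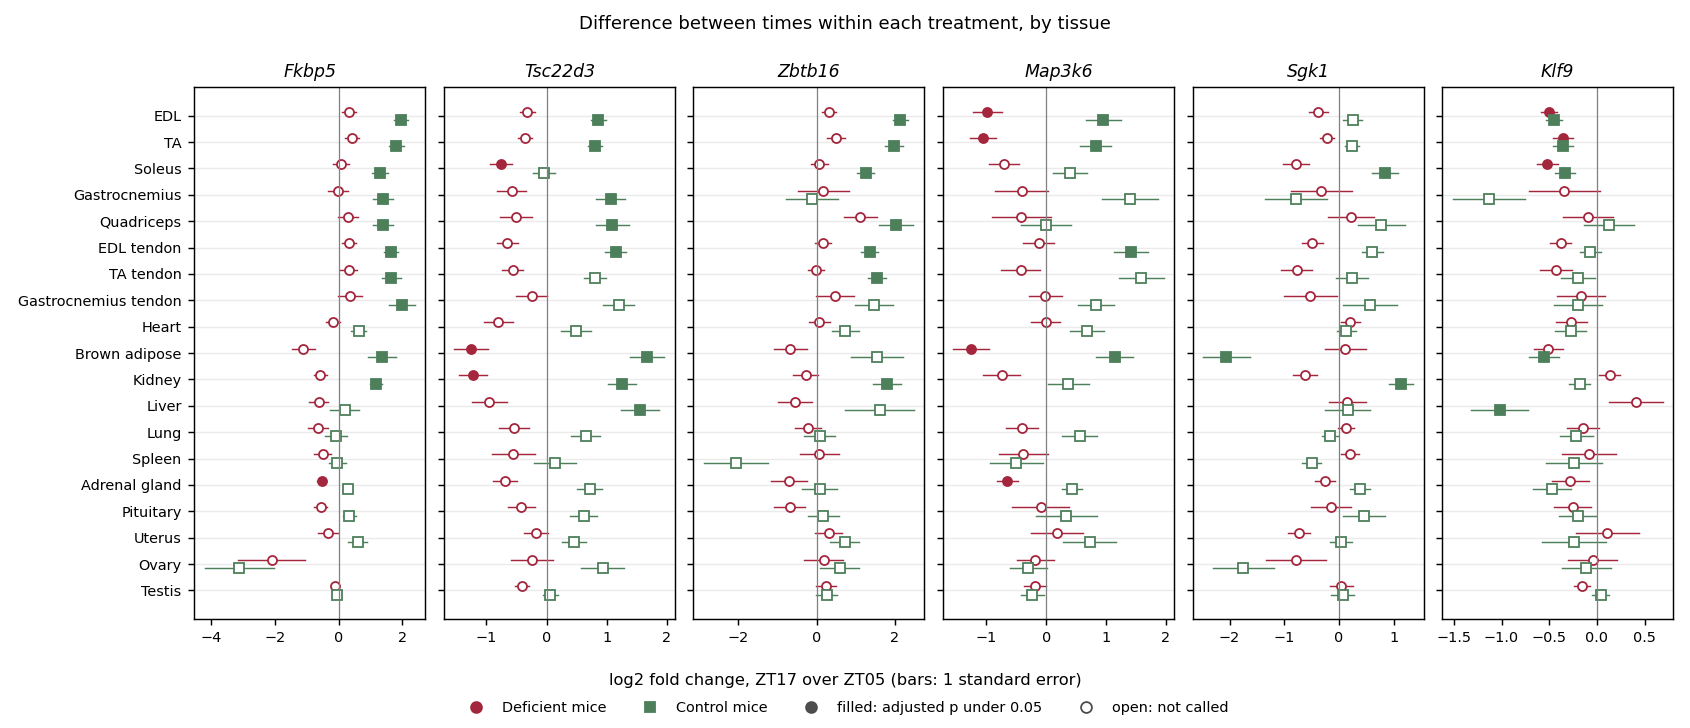
Log2 fold change, ZT17 over ZT05, of the 6 genes in each tissue in Deficient mice (circles) and Control mice (squares), with bars of 1 standard error; filled symbols have an adjusted p under 0.05. Filled squares of Fkbp5, Tsc22d3 and Zbtb16 lie right of 0, mostly in muscles, tendons and kidney, whereas filled circles lie left of 0.

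Fkbp5 in Deficient mice fell in 1 tissue at ZT17, adrenal gland (-0.53 ± 0.14, adjusted p = 0.041, called in 9 of 24 fits that left out 1 library). In Control mice it was higher at ZT17 in 10 tissues, namely the 5 limb muscles, the 3 tendons, brown adipose tissue and kidney. Gastrocnemius tendon was called in 6 of 24 fits that left out 1 library. In quadriceps all Control males at ZT05 came from the first cohort and most at ZT17 did not. A fit with a term for the cohort ended the quadriceps calls of Fkbp5, Tsc22d3 and Zbtb16 between times. The rise was 1.97 ± 0.23 in EDL (adjusted p = 5.74e-06) and 1.17 ± 0.20 in kidney. In heart (0.63 ± 0.24), lung (-0.09 ± 0.34), spleen (-0.04 ± 0.27) and pituitary (0.34 ± 0.21) it was not called in Control mice. Zbtb16 was higher at ZT17 in 7 tissues of Control mice, with 2.14 ± 0.19 in EDL, against 0.31 ± 0.18 in EDL of Deficient mice (adjusted p = 0.339).

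Tsc22d3 fell at ZT17 in 3 tissues of Deficient mice, brown adipose tissue (-1.25 ± 0.28), kidney (-1.22 ± 0.23) and soleus (-0.76 ± 0.18), and rose in 8 of Control mice. Map3k6 fell in 4 tissues of Deficient mice and rose in 4 of Control mice, and EDL, TA and brown adipose tissue were in both lists. In TA it fell by 1.06 ± 0.22 in Deficient mice (adjusted p = 0.00602) and rose by 0.83 ± 0.26 in Control mice (adjusted p = 0.0408, called in 15 of 24 fits that left out 1 library). Klf9 was lower at ZT17 in both treatments, in 3 tissues of Deficient and 5 of Control mice, and EDL gave -0.50 ± 0.08 and -0.45 ± 0.08. Sgk1 in Control mice rose at ZT17 in kidney (1.13 ± 0.22) and soleus (0.85 ± 0.24) and fell in brown adipose tissue (-2.06 ± 0.43). In Deficient mice Sgk1 was not called in any tissue by edgeR, and 6 tissues had an unadjusted p under 0.05, all lower at ZT17. Among Deficient mice, the 11 falls became 20 without mouse 59 and 6 without mouse 35, both females sampled at ZT05, and 7 without mouse 81 or mouse 90, both males.

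Libraries of different tissues that carry the same number in the count table were taken as 1 mouse, which the labels do not state. Levels were also averaged over tissues within each number, so that the mouse was the replicate. Males fell into 2 separate ranges of numbers, called the first and second cohort here; no label names a cohort. The 12 females gave 18 tissues each. All 12 males of the first cohort gave 5 tissues (heart, liver, lung, pituitary and testis), and all 12 of the second gave 6 (adrenal gland, kidney, EDL, EDL tendon, soleus and TA). Each set holds 3 mice per treatment and time. In brown adipose tissue, gastrocnemius, gastrocnemius tendon, quadriceps and spleen the male groups mixed both cohorts, unevenly between treatments or times. Second-cohort libraries numbered 1 of 6 Deficient and 2 of 6 Control in quadriceps, and 0 of 6 Deficient and 2 of 6 Control in gastrocnemius tendon. Both of the Control ones in quadriceps were sampled at ZT17.

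Mean log2 CPM of Fkbp5 in Deficient females was 7.08, 6.22 and 6.55 at ZT17 and 6.59, 6.73 and 5.79 at ZT05. In Control females it was 6.07, 6.15 and 6.16 at ZT17 and 4.57, 4.87 and 4.90 at ZT05. The 3 Control females at ZT05 were below the other 9 mice. At ZT17 the difference between treatments was 0.49 ± 0.22 and not called (limma, adjusted p = 0.107), and at ZT05 it was 1.59 ± 0.22 (adjusted p = 0.000603). The difference of both was -1.10 ± 0.32 (adjusted p = 0.0512).

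Of the 6 members, 2 were higher in Deficient females at ZT17, Map3k6 (0.69 ± 0.21, adjusted p = 0.0247) and Klf9 (0.45 ± 0.12, adjusted p = 0.0108), and 6 at ZT05. Of all genes 15.6% rose at ZT17 and 16.9% at ZT05. The response difference was called for Tsc22d3 (-1.43 ± 0.35, adjusted p = 0.0286) and Map3k6 (-1.08 ± 0.30, adjusted p = 0.047), against 4.86% of all genes called lower. The Map3k6 mean covers all 18 tissues, with liver among them, where its median in Control females was 0.303 CPM. Mouse 59, a Deficient female at ZT05, had the lowest mean of its group for each member, 5.79 for Fkbp5 and 6.88 for Tsc22d3. Without it 5 members were called lower in their response at ZT17 and 4 higher in Deficient females at ZT17, and without another single female the first number was 0 to 2. Between times, 0 members were called in Deficient females, where 7.6% of all genes fell at ZT17 (limma; at unadjusted p under 0.05 Klf9 was lower and Zbtb16 higher). In Control females 5 rose at ZT17, where 8.64% of all genes did, and Klf9 gave -0.16 ± 0.12 (adjusted p = 0.369).

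**Figure D4:**
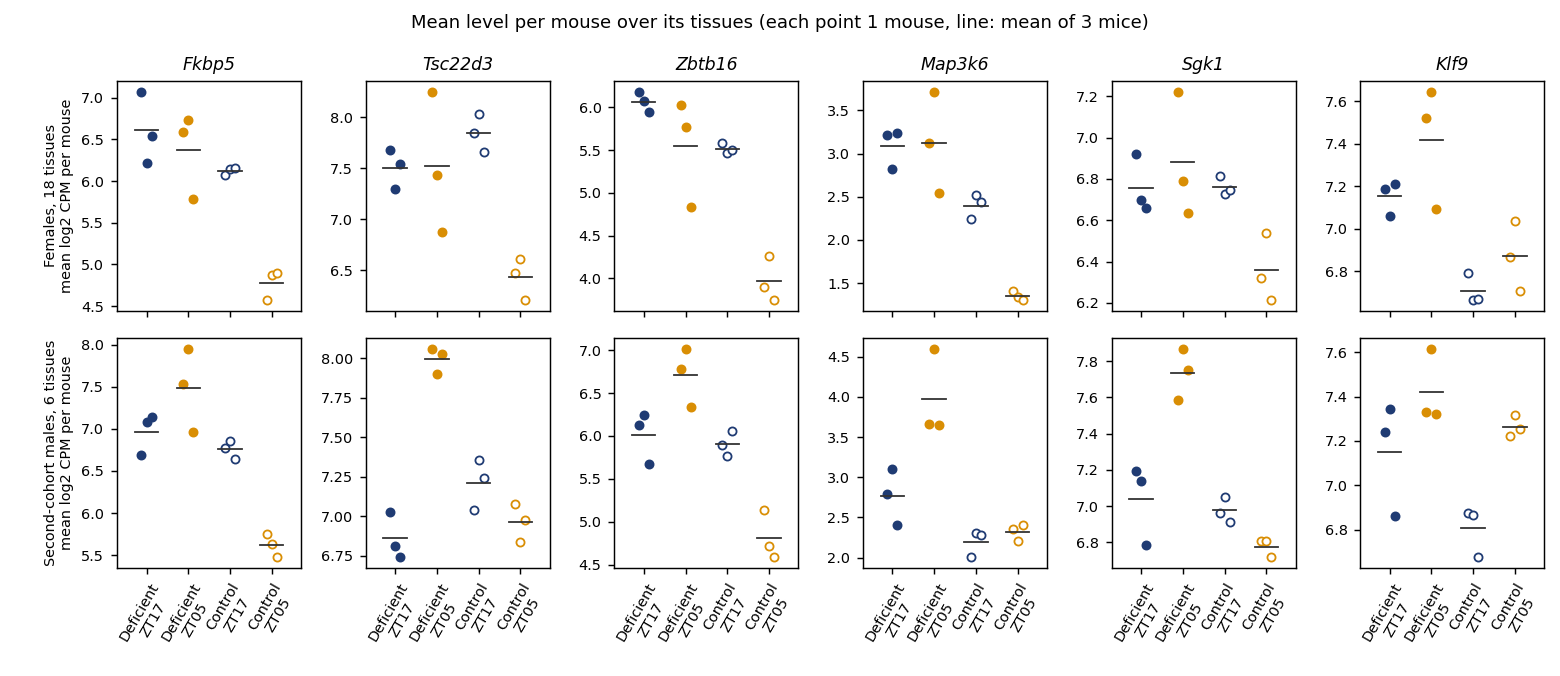
Mean log2 CPM per mouse over its tissues for the 6 genes, in 12 females (top) and 12 second-cohort males (bottom); points are mice, filled for Deficient and open for Control, and lines are means of 3 mice. Control mice at ZT05 are the lowest group for Fkbp5 and Zbtb16 in both rows, and Deficient second-cohort males at ZT05 have the highest group mean for all 6 genes.

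In second-cohort males, 0 members were called higher in Deficient mice at ZT17 (limma; Map3k6 and Klf9 were higher at unadjusted p under 0.05), and 5 at ZT05. Of all genes 5.6% rose at ZT17 and 6.26% at ZT05. Mean log2 CPM of Tsc22d3 in Deficient males was 7.03, 6.81 and 6.74 at ZT17 and 8.06, 7.90 and 8.03 at ZT05. In Control males it was 7.04, 7.35 and 7.24 at ZT17 and 7.08, 6.84 and 6.98 at ZT05. Deficient males at ZT05 stood above the other 9, and at ZT17 each Deficient mean was below each Control mean. Tsc22d3 fell by 0.35 ± 0.09 at ZT17 (adjusted p = 0.0305) and rose by 1.03 ± 0.09 at ZT05 (adjusted p = 0.0002), and the difference was -1.39 ± 0.13 (adjusted p = 0.00147). The difference was called for 4 members, with Fkbp5 at -1.66 ± 0.27, Zbtb16 at -1.78 ± 0.26 and Sgk1 at -0.90 ± 0.14, against 0.91% of all genes called lower. It was 4 without any single mouse. In Deficient males Sgk1, Map3k6 and Tsc22d3 fell at ZT17, where 0.97% of all genes did. In Control males Fkbp5 and Zbtb16 rose (1.95% of all genes did) and Klf9 fell.

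First-cohort males gave fewer calls over their 5 tissues. Mitochondrially encoded and rRNA-like genes took 79.2% to 95.3% of counts in male liver, 61.7% to 77.6% in heart and 33.2% to 65.9% in lung. In testis, 2 of 20816 genes rose and 4 fell over times (edgeR). The part of depth and of the choice of tissues in the number of calls was not tested. Klf9 was higher in Deficient males at ZT17 (0.73 ± 0.14, adjusted p = 0.0472), and Fkbp5 (1.43 ± 0.27, adjusted p = 0.0369) and Tsc22d3 (1.22 ± 0.19, adjusted p = 0.0113) at ZT05. Of all genes 0.133% rose at ZT17 and 0.199% at ZT05. Leaving out 1 mouse gave 0 or 1 calls at ZT17 and 0 to 3 at ZT05. The response difference was called for 0 members (limma), and Tsc22d3 (-1.11 ± 0.28, adjusted p = 0.114) and Klf9 (0.63 ± 0.19) were at unadjusted p under 0.05. Few genes of any kind had a called response difference in this set, 3 higher and 0 lower of 12044. Mean log2 CPM of Fkbp5 in Control males was 4.77, 4.53 and 4.74 at ZT17 and 4.96, 5.65 and 4.82 at ZT05, so that Control values were not higher at ZT17 in these tissues (-0.46 ± 0.27, adjusted p = 0.49).

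Averaged over both times, 43 of 107 pairs were higher in Deficient females and 1 was lower, and 40 of 101 were higher in Deficient males and 0 lower by edgeR, with none lower at an unadjusted p under 0.05. Of the 40 male calls 24 held in every fit that left out 1 mouse and 21 under every other alternative, and of the 44 female calls 29 and 37. Of all pairs 4.93% rose and 5.29% fell in females, and 3.09% rose and 3.16% fell in males. The difference between the sexes was called in 2 of 95 pairs, 1 in each direction, against 0.632% and 0.516% of all pairs. Both were in kidney, where the males came from the second cohort and the females from the first, so sex and cohort cannot be told apart.

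Kidney Fkbp5 in females was 166, 100 and 107 CPM in Deficient mice at ZT17 and 164, 124 and 71.4 CPM at ZT05, and in Control mice 80.8, 96.3 and 82.3 CPM at ZT17 and 31.0, 30.3 and 25.7 CPM at ZT05. In males it was 115, 111 and 179 CPM in Deficient mice at ZT17 and 269, 331 and 318 CPM at ZT05, and in Control mice 210, 395 and 197 CPM at ZT17 and 173, 179 and 114 CPM at ZT05. Deficient males were below Control males at ZT17 and above them at ZT05. The response averaged over times was 1.29 ± 0.20 in females and -0.03 ± 0.19 in males, a difference of 1.31 ± 0.28 (adjusted p = 0.00418). Kidney Sgk1 went the other way (0.01 ± 0.21 in females, 1.03 ± 0.22 in males), a difference of -1.01 ± 0.30 (adjusted p = 0.0322) called in 16 of 24 fits that left out 1 library. The female mean joined opposite orders of the treatments. Deficient females held 186, 141 and 130 CPM of Sgk1 at ZT17, against 279, 336 and 284 CPM in Control females. At ZT05 Deficient females held 210, 189 and 82.8 CPM, against 61.5, 118 and 61.6 CPM in Control females.

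Soleus, a slow postural muscle, was the 1 tissue in which all 6 genes rose in both sexes. The 6 fold changes lay between 0.57 and 1.67 in females and between 0.34 and 1.66 in males, and of all genes tested in soleus 12.1% rose in females and 4.39% in males. Leaving out 1 library lost calls of Tsc22d3 and Sgk1 in females and of Tsc22d3, Zbtb16, Sgk1 and Klf9 in males, and the Klf9 rise in males held in 6 of 24 fits. Summed red cell markers were lower in soleus of Deficient females (4.88 to 29.9 CPM) than of Control females (43.6 to 109 CPM), and their part in the result was not tested.

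Testis was at the other end, with 0 of 6 genes called in any comparison by edgeR. Few genes of any kind were called there. Of 20816 genes tested in testis, 2 rose and 4 fell over times, 0 rose and 3 fell at ZT17, and 0 rose and 0 fell at ZT05. Over times, Fkbp5, Tsc22d3 and Sgk1 had an unadjusted p under 0.05 there, as did Fkbp5 and Tsc22d3 at ZT05. The log2 fold changes between treatments there ran from -0.06 to 0.50. Fkbp5 in testis was 49.4, 50.9 and 52.2 CPM at ZT17 and 52.0, 61.4 and 53.0 CPM at ZT05 in Deficient mice, against 42.7, 49.7 and 48.0 CPM at ZT17 and 47.4, 49.5 and 47.7 CPM at ZT05 in Control mice. Deficient and Control values overlapped at ZT17 and did not at ZT05. Tsc22d3 had the highest response at ZT05, 0.50 ± 0.12, with an adjusted p of 0.522.

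The members differed widely in where they were expressed. Ranked by the median over Control females (Control males for testis), most neighbouring tissues overlapped. Fkbp5 was highest in adrenal gland (median 79.1 CPM) and TA (77.6 CPM) and lowest in uterus (12.5 CPM), with all 18 neighbouring pairs overlapping. Tsc22d3 ranged from 353 CPM in TA tendon to 15.4 CPM in testis, Zbtb16 from 136 CPM in quadriceps to 1.99 CPM in testis, and Sgk1 from 280 CPM in TA tendon to 3.21 CPM in testis. Map3k6 ranged from 12.6 CPM in lung to 0.303 CPM in liver, and Klf9 from 230 CPM in quadriceps to 20.0 CPM in spleen. In these 5 genes the lowest tissue did not overlap the next one in this ranking, and all other neighbours overlapped. Testis alone was ranked by males, so its separation from female libraries mixes tissue and sex. A Control male pituitary library (mouse 33, ZT05) held 2.99 CPM of Sgk1, within the 2.13 to 3.89 CPM of Control testis. Per kilobase of exon, the median over female tissues was 46.4 CPM for Tsc22d3 in Deficient and 41.4 in Control mice, and 2.11 and 0.829 CPM for Map3k6, the lowest of the 6 genes.

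**Figure D5:**
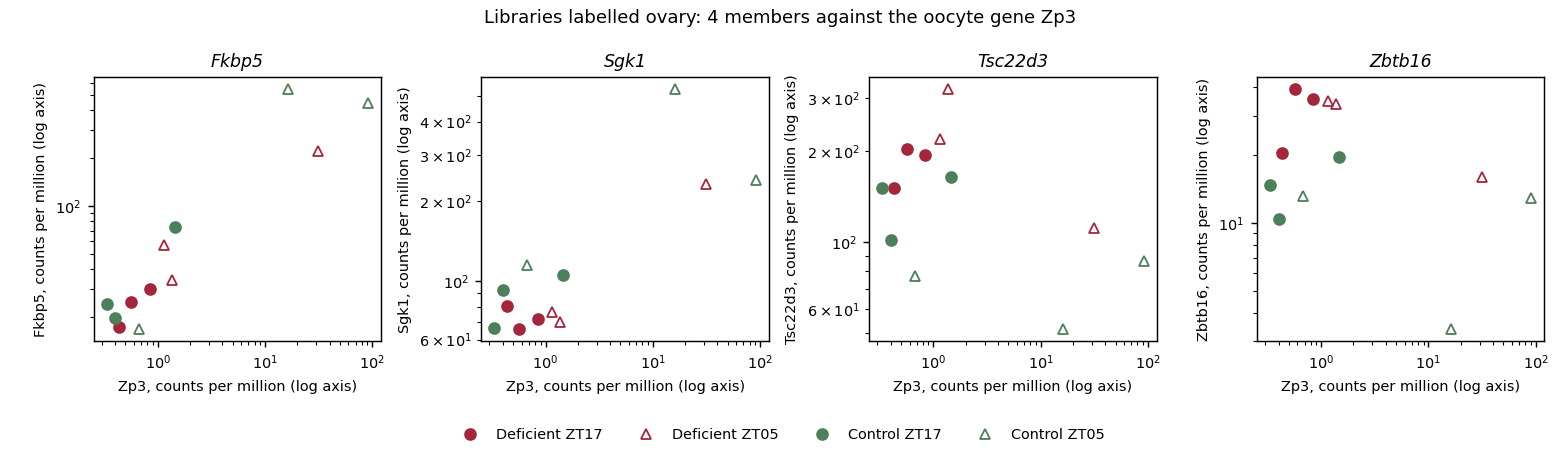
CPM of Fkbp5, Sgk1, Tsc22d3 and Zbtb16 against the oocyte gene Zp3 in the 12 libraries labelled ovary (both axes log); red is Deficient, green Control, circles ZT17 and triangles ZT05. The 3 libraries with Zp3 of 16.3 CPM or more are the 3 highest for Fkbp5 and Sgk1.

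The ovary-labelled libraries did not form 1 kind. Zp3, which encodes a protein of the oocyte coat, was 31.5 CPM in 1 Deficient library (mouse 59), and 91.0 and 16.3 CPM in 2 Control libraries (mice 39 and 47), all at ZT05, and at most 1.46 CPM in the other 9. The granulosa cell gene Fshr was at 0 in 7 libraries. Fkbp5 was 221, 444 and 544 CPM in those 3 libraries and 16.7 to 73.4 CPM in the other 9, and Sgk1 232, 240 and 530 CPM against 65.7 to 115 CPM. Fkbp5 therefore gave a fold change of -1.71 ± 1.03 at ZT05 in ovary (adjusted p = 0.389), the lowest of all tissues, whose standard error was the highest of all tissues. Without ovary 21 of 107 pairs were higher and 5 lower at ZT17, and 68 higher and 0 lower at ZT05.

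Markers of other cells moved with treatment in several tissues, and their part in the responses above was not tested. Red cell markers were lower in Deficient mice in 22 of 65 pairs at ZT17 and 14 at ZT05, and 0 were higher. Macrophage markers were lower in 29 of 114 pairs at ZT17 and 16 at ZT05, and higher in 0 and 3. Neutrophil markers were higher in 18 of 42 pairs at ZT17 and 0 at ZT05, and lower in 1 and 2. Of all pairs 4.19% rose and 4.26% fell at ZT17, and 3.87% rose and 3.98% fell at ZT05. In EDL of females, summed red cell markers were 7.95 to 51.6 CPM in Deficient and 57.0 to 111 CPM in Control libraries, and macrophage markers 24.9 to 37.1 CPM and 34.0 to 66.7 CPM.

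Among the members, profiles over the 140 groups, each centred on its tissue and sex, were most alike for Fkbp5 and Map3k6 (Pearson r = 0.80) and for Fkbp5 and Zbtb16 (0.74), and Sgk1 and Klf9 gave 0.24 to 0.46 with the others and with each other. The groups share mice, treatments and library depth, so these are descriptions. Over 12524 genes, those most like Fkbp5 were Hif3a (r = 0.81), Slc43a3 (0.78) and Prodh (0.77), and those most like Map3k6 were Slc10a6 (0.86), Hif3a (0.84) and Cebpd (0.83). Fmo2 and Hif3a led for Zbtb16 (0.74 and 0.71), followed by Ahctf1 (0.68). Timp4 and Fmo2 were among the genes closest to Tsc22d3 (0.71 and 0.70), and Scaf11, Aldh6a1 and Klf15 were closest to Klf9 (0.74, 0.73 and 0.72) and Smad7, Aph1a and S1pr1 to Sgk1 (0.71, 0.64 and 0.63). Values for Timp4 rest on 124 groups and for Slc10a6 on 132.

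A list of 32 other glucocorticoid-responsive genes showed a smaller shift. It was chosen with earlier results of these data known, so its counts are a description and not independent support. Of its 575 pairs, 87 were higher in Deficient mice and 15 lower at ZT17 (15.1% and 2.61%), and 192 were higher and 10 lower at ZT05 (33.4% and 1.74%). Of all pairs 4.19% rose and 4.26% fell at ZT17, and 3.87% rose and 3.98% fell at ZT05. The response difference was called lower in 32 pairs of the list and higher in 9, against 0.989% and 0.912% of all pairs. At ZT05 the circadian gene Per1, itself induced by the receptor, rose in 14 of 19 tissues, Cebpb in 12 of 18, and Arrdc2, Cdkn1a and Errfi1 in 11 of 19 each. At ZT17 the ubiquitin ligase genes Fbxo32 and Trim63 rose in 11 of 19 and 7 of 18 tissues, and Cdkn1a and Sult1a1 in 9 of 19. Fbxo32 was the gene with the most positive response differences (4 tissues), and Glul, which encodes glutamine synthetase, had 5 negative ones. Per1 fell at ZT17 in 7 tissues of Deficient mice, where 0.812% of all pairs did, and Fam107a rose in 7 of Control mice, where 2.6% did.

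The receptor gene Nr3c1 itself was higher in 1 tissue and lower in 1 at either time, with medians of -0.13 at ZT17 and -0.15 at ZT05. This list of the receptor, its chaperones and the enzymes that set hormone supply in the cell gave 249 pairs. At ZT17, 18 were higher in Deficient mice and 31 lower (7.23% and 12.4%, against 4.19% and 4.26% of all pairs). At ZT05, 14 were higher and 2 lower (5.62% and 0.803%, against 3.87% and 3.98% of all pairs). The chaperone gene Hsp90aa1 fell in 10 of 19 tissues and its partner Stip1 in 6 at ZT17, and 0 at ZT05. In Control mice they were higher at ZT17 than at ZT05 in 11 and 7 tissues, where 2.6% of all pairs were. Fkbp4, whose product competes with that of Fkbp5 at the receptor, fell in 4 tissues at ZT17. Abcb1b, which encodes a membrane pump that exports steroids, rose in 6 of 17 tissues at ZT17 and 4 at ZT05.

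Genes upstream of the hormone were read in the glands themselves, as responses averaged over both times unless a time is given. In pituitary the adjusted p of all 5 corticotroph genes was 0.231 or more in both sexes (edgeR). Of all 19351 genes tested in pituitary, 175 rose and 199 fell in females, and 0 rose and 0 fell in males. Pomc, the corticotropin precursor gene, gave 0.52 ± 0.63 in females and 0.12 ± 0.63 in males, and the vasopressin receptor gene Avpr1b gave 0.74 ± 0.31 and 1.11 ± 0.32. In adrenal gland Mc2r, the corticotropin receptor gene, rose in females by 0.50 ± 0.09 (adjusted p = 0.00325) and gave 0.35 ± 0.09 in males (adjusted p = 0.0892). Of all 17572 genes tested in adrenal gland, 406 rose and 546 fell in females, and 121 rose and 78 fell in males. Star (-0.13 ± 0.15 and 0.08 ± 0.15), Cyp11a1 (0.06 ± 0.11 and -0.14 ± 0.11) and Cyp11b1 (0.15 ± 0.15 and 0.45 ± 0.15), which act in corticosterone synthesis, were not called in females or males. The aldosterone synthase gene Cyp11b2 gave -0.88 ± 0.35 in females (adjusted p = 0.147), and Hsd3b1, of the same pathway, 0.40 ± 0.11 in males (adjusted p = 0.0733). In the adrenal gland itself, Tsc22d3 gave -0.58 ± 0.20 at ZT17 (adjusted p = 0.155) and 0.83 ± 0.20 at ZT05 (adjusted p = 0.0301), a difference of -1.41 ± 0.29 (adjusted p = 0.0357) called in 10 of 24 fits that left out 1 library.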

How the data were processed

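RNA was extracted with TRIzol and 500 ng were used for stranded poly(A) libraries, per the labels' protocols. FastQC 0.11.9, cutadapt 4.1, STAR 2.7.10a, DESeq2 1.34.0 and the builds GRCm38 and mm10 are listed per the submitters' processing notes; the counting tool and the annotation release are not given in the sources used here. The authors deposited raw counts per gene, used as deposited, and a second, normalized table, which was not used. Mouse numbers, and the cohorts of males read from their ranges, come from the column names of the count table; the labels state neither that equal numbers are 1 mouse nor a cohort.

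Fits were made per tissue in edgeR 4.0.16 (R 4.3.3): a quasi-likelihood test, TMM scaling, filterByExpr (minimum count 10, minimum total 15), 1 term for each group of sex, treatment and time, and Benjamini-Hochberg adjustment over all genes tested in that tissue. Deficient against Control at one time is the mean of both sexes' differences where both were sampled. Mouse means are mean log2 CPM (prior count 2) over complete tissues, tested with limma 3.58.1. They were adjusted over the genes past the count filter in every tissue of the set, with mitochondrially encoded and rRNA-like genes left out first. These were 11772 genes in females, 12044 in first-cohort males and 13297 in second-cohort males, and shares of all genes for mouse means refer to them. Printed levels are CPM with TMM-scaled library sizes, leaving out mitochondrially encoded and rRNA-like genes. The procedures were tested on simulated data. Alternatives were DESeq2 1.42.0, other scaling and filters, a replicate block, a cohort term, each sex alone, and leaving out each mouse. Replicates carry different mouse numbers; p-values measure the spread between these libraries.

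Named genes are the 6 members and, from other lists, up to 4 genes called in most tissues (more at ties); the 3 genes most like each member were ranked by Pearson correlation, of which 1 is not reported here. The members and lists were chosen with earlier results of these data known. Among the counted genes, 248 are named by identifier.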

Additional observations from a re-analysis of the deposited data

Results flagged for a closer look

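In 23 pairs of gene and tissue the response to energy deficiency differed between ZT17 and ZT05 by the test of the difference itself (edgeR, adjusted p under 0.05); values are log2, response at ZT17 minus response at ZT05. Fkbp5 gave -2.46 in brown adipose tissue, -1.63 in EDL, -1.74 in kidney and -1.39 in TA. Tsc22d3 gave -1.41 in adrenal gland, -2.92 in brown adipose tissue, -1.18 in EDL, -1.80 in EDL tendon, -2.49 in kidney, -2.50 in liver, -1.18 in lung and -1.16 in TA. Zbtb16 gave -1.83 in EDL, -2.08 in kidney, -1.19 in soleus and -1.50 in TA. Map3k6 gave -1.08 in adrenal gland, -2.41 in brown adipose tissue, -1.94 in EDL and -1.89 in TA. Sgk1 gave -1.76 in kidney, -1.64 in soleus and 2.18 in brown adipose tissue.

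Of these 23 calls 18 were made in every fit that left out 1 mouse. The exceptions were Map3k6 in adrenal gland (4 of 24 fits), Tsc22d3 in lung (4) and adrenal gland (10), Zbtb16 in soleus (12) and Fkbp5 in TA (23).

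The same test on mouse means gave -1.43 for Tsc22d3 and -1.08 for Map3k6 in females. In second-cohort males it gave -1.66 for Fkbp5, -1.39 for Tsc22d3, -1.78 for Zbtb16 and -0.90 for Sgk1. These use the same libraries as the pairs above.

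The response averaged over times differed between females and males in kidney, by 1.31 for Fkbp5 and -1.01 for Sgk1 (log2, female minus male).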

How the results depend on the processing

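No called result changed direction under an alternative that was run. With DESeq2, 32 pairs rose at ZT17 in Deficient mice, the response difference was negative in 36 and positive in 2 (Sgk1 in brown adipose tissue and Klf9 in liver), and the female response was below the male in 2. Without a low-count filter these were 36, 35, 2 and 7, 1 pair fell at ZT05, and in Deficient mice 22 pairs fell and 5 rose at ZT17. Positive response differences numbered 2, the same pairs, also with a stricter filter, without mitochondrial and rRNA-like genes, and with the replicate block, under which 71 pairs rose at ZT05. Libraries of the same replicate number had a mean correlation per tissue of -0.035 to 0.076, and single pairs ran from -0.714 to 0.886. In tissues of both sexes these pairs mix males and females, so the means cannot show whether replicate numbers pair the mice. Counted without the 8 tissues holding libraries with over 50% of such genes, chosen after seeing the data, rises in Deficient mice were 11 at ZT17, 39 at ZT05 and 17 in males, falls in Control mice at ZT17 were 3, and the response difference was positive in 0 and negative in 17 of 66.

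Of the calls of single pairs, the numbers made in every fit that left out 1 mouse were 56 of 68 at ZT05, 12 of 26 at ZT17, 29 of 44 in females, 24 of 40 in males, 18 of 23 for the response difference, 4 of 11 between times in Deficient mice, 20 of 37 in Control mice, and 1 of 2 for the difference between the sexes. Those made under every other alternative run were 65, 21, 37, 21, 22, 9, 33 and 2 in the same order.

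A cohort term, fitted in the 5 tissues whose male groups mix cohorts, ended the calls of Tsc22d3 in brown adipose tissue at ZT17, Klf9 in spleen at ZT05, and Fkbp5, Tsc22d3 and Zbtb16 in quadriceps between times in Control mice (adjusted p = 0.0657 to 0.0972), and brought in 26 others, of 240 results.

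Leaving out 1 mouse at a time, rises in Deficient mice were 13 to 25 at ZT17, 62 to 70 at ZT05, 32 to 50 in females and 30 to 42 in males, and falls were 3 to 6 at ZT17 and 0 to 1 at ZT05. The lowest count at ZT17, 13, came without mouse 56, a Control female. The response difference was negative in 18 to 26 and positive in 1 to 2. Between times, Control mice had 21 to 32 rises and 3 to 7 falls at ZT17, and Deficient mice 0 to 1 rises and 6 to 20 falls. The female response was below the male in 0 to 1.

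Of the mouse means, leaving out 1 mouse gave 1 to 4 rises at ZT17 and 0 to 5 negative response differences in females, 0 to 3 rises at ZT05 and 0 to 1 at ZT17 in first-cohort males, and 0 to 2 at ZT17 in second-cohort males. First-cohort rises were 1 at ZT05 and 0 at ZT17 with a prior count of 0.5, 1 at ZT05 with the replicate block, and 0 at both times without the tissues of the largest and smallest response. Second-cohort rises at ZT17 were 1 with the replicate block. The causes of these changes were not tested.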
